A study of Mus musculus with 2 samples.

Results

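Cluster 3 is 1 of the authors' 12 transcript clusters of natural killer (NK) cells, from a study of mice carrying a subcutaneous tumour. Its members were the cells that the authors' deposited cell table placed in cluster 3 and whose hashtag class named 1 population, that is, cells not called doublets. They were 1173 of 7479 such singlets, or 15.7% (95% exact binomial interval 14.9 to 16.5). The study asked how feeding state relates to NK cells in separate tissues. Mice of strain C57BL/6, aged 12 weeks, received MC38 cells, a mouse colon carcinoma line, under the skin and were kept on an ad libitum diet or a cyclic fasting diet. Spleen, bone marrow and tumour were each taken from ad libitum, fasted and refed mice, and spleen gave a further population named naive. All 10 populations were sorted as lineage-negative NK1.1+ CD49b+ cells and pooled on 1 Chromium lane. The labels read here do not state what naive stands for, including whether those mice carried a tumour. They also do not state how many mice made up a population or how long the fasts lasted. With 1 hashtag a population counts as 1 sample, so differences are given without a test, and all intervals cover counting error only.

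NK cells are innate lymphocytes that kill infected or transformed cells with perforin and granzymes and recruit other leukocytes with chemokines. In mice they mature in bone marrow and blood from CD27+ cells rich in Tcf7, Ltb and Emb towards CD11b+ cells that carry KLRG1, CX3CR1 and S1PR5 and circulate through spleen and blood. Inhibitory Ly49 receptors, each expressed on a random subset of NK cells, read self MHC class I and set the threshold for killing.

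Population identity came from a 15-base barcode on the antibody that stained each population, and these barcodes are shown because every comparison below rests on them. The 45 pairs of barcodes differed at 7 to 14 of their positions.
spleen naive: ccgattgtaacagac
spleen ad libitum: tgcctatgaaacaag
spleen fasted: gagtctgccagtatc
spleen refed: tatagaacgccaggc
bone marrow ad libitum: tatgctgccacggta
bone marrow fasted: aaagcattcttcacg
bone marrow refed: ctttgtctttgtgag
tumour ad libitum: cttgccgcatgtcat
tumour fasted: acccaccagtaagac
tumour refed: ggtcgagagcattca

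The singlets of cluster 3 held 5847034 unique molecular identifiers (UMIs, each standing for 1 captured transcript), with a median of 4769 UMIs and 1657 genes per cell. In spleen the median depth was 4826.5 UMIs in the naive, 5137.5 in the ad libitum, 4059 in the fasted and 4959 in the refed cells, so the fasted cells were the shallowest. Of the classified cells of the cluster, 25.9% (410 of 1583; 95% interval 23.8 to 28.1) had been called doublets, against 45.2% of those in the other clusters. No barcode was repeated in the deposited table. Markers of other cell types were low in the spleen cells of the cluster. The summed T cell list stood at 322 to 382 CPM (the gene's UMIs in a sum of cells, scaled to the usual common total) with Cd4, Cd8a and Cd8b1 at 0, the B cell list at 75.5 to 100 CPM with Ms4a1, Pax5 and Ebf1 at 0, and the monocyte and macrophage list at 246 to 306 CPM with Fcgr1 at 0 and Ccr2 making up 215 to 259 CPM of it. Dendritic cell genes summed to 42.5 to 66.9 CPM with Clec9a and Cd209a at 0, and neutrophil genes to 25.3 to 54.9 CPM with Csf3r, Retnlg, Mmp8 and Ly6g at 0. The type 1 innate lymphoid list, close to NK cells, stood at 9.60 CPM in naive, 17.1 in ad libitum, 33.3 in fasted and 20.2 in refed cells, and the part of such cells in the results below was not tested.

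Cluster 3 was mainly a spleen population. Spleen gave 1087 of its cells (92.7%), bone marrow 50 (4.26%) and tumour 36 (3.07%). In spleen the cluster held 150 of 818 naive singlets (18.3%, 95% interval 15.7 to 21.2), 362 of 1804 ad libitum singlets (20.1%, 18.2 to 22.0), 355 of 1391 fasted singlets (25.5%, 23.2 to 27.9) and 220 of 1476 refed singlets (14.9%, 13.1 to 16.8). The fasted share was above the ad libitum and the refed share below it, in both cases without overlap of the counting intervals. The naive interval overlapped those of ad libitum and refed. Cluster 1 also held a larger share of fasted than of ad libitum singlets (24.5 and 16.1%), and clusters 4 (14.4 and 21.6%) and 5 (7.55 and 18.3%) smaller ones. Shares of a population add to a whole, so a rise of 1 cluster and a fall of others cannot be told apart.

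In bone marrow the shares were 6.78% in ad libitum (39 of 575), 4.41% in fasted (6 of 136) and 1.48% in refed cells (5 of 337). In tumour they were 8.70% in ad libitum (4 of 46) and 4.00% in fasted cells (32 of 801), and 0 of 95 refed cells were assigned to the cluster, which allows a share of up to 3.16%. Without cells holding 3 or more UMIs of 1 other cell type the bone marrow share, 4.77% in all, became 8.82%. The bone marrow and tumour counts were small, and the intervals of the tumour ad libitum and fasted shares overlapped. Leading genes of the cluster, Cx3cr1 among them, also differed between the spleen populations, so a change in the number of such cells and a shift of genes that decide the assignment cannot be told apart.

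**Figure D1:**
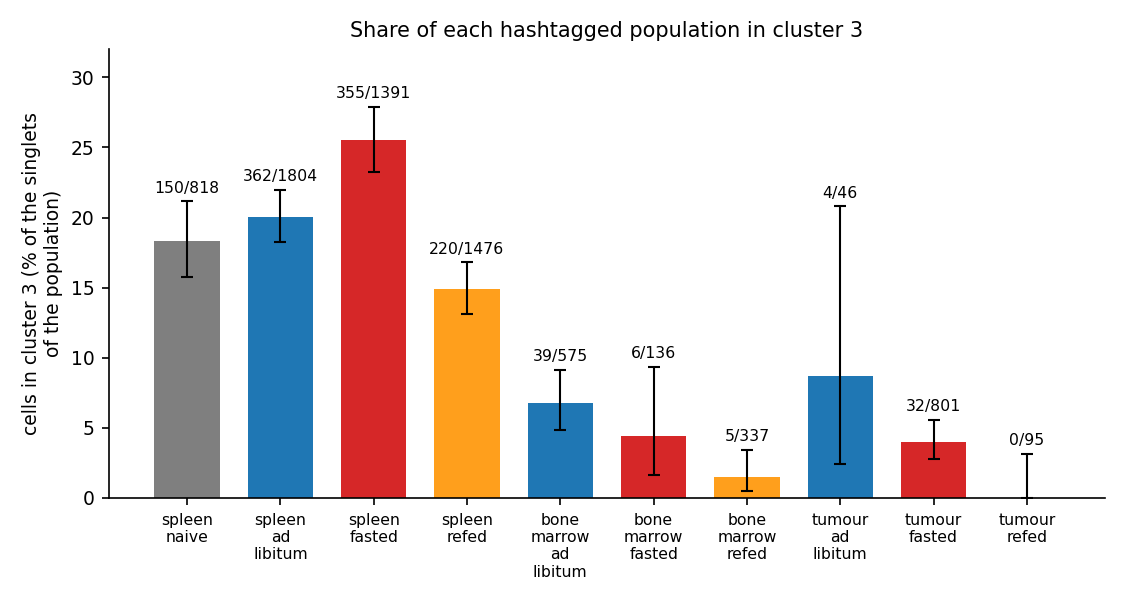
Share of the singlets of each hashtagged population that fell in cluster 3 (% on the vertical axis), with 95% exact binomial intervals and the counts above the bars; for tumour refed the line ends at the 3.16% that a count of 0 allows. Spleen populations sit between 14.9% and 25.5%, with fasted the highest, and the bone marrow and tumour populations lie at 8.70% or below.

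The cells carried the transcripts that define NK cells. The NK identity list summed to 36240 to 39599 CPM in the 4 spleen populations of cluster 3, and to 30625 to 34114 CPM in the other singlets of the same populations. For a description of the cluster, UMIs were summed over its cells and over all other singlets within each spleen population, and a gene's value was the median of the 4 log2 ratios of CPM plus 5. Because the authors built the clusters from these genes, the contrast is no test. Of 2701 genes at 50 CPM or more, 6 (0.222%) were at least 1.5-fold higher in cluster 3 and 35 (1.3%) at least 1.5-fold lower, and these shares are the background for the counts of listed genes. The median over all 2701 genes was -0.08. With TMM scaling it moved to 0.04, and the counts became 7 higher and 17 lower.

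The highest leading genes were secreted and surface products of effector NK cells. Ccl5, a chemokine that draws T cells and monocytes (chromosome 11, 83525778 to 83530518, minus strand, mm10), stood at 34768 CPM in naive, 35510 in ad libitum, 37211 in fasted and 31194 in refed cells of cluster 3. The other singlets of those populations held 16543, 17411, 20352 and 14991 CPM, so that every cluster 3 value was above every other value, with a median log2 ratio of 1.04 (range 0.87 to 1.07). No other of the 12 clusters had a higher spleen level of Ccl5 than the 34990 CPM of cluster 3, and the next, cluster 4, had 23656 CPM.

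Cx3cr1, the fractalkine receptor of circulating mature NK cells (chromosome 9, 119901616 to 120069879, minus strand), had the highest ratio, 1.31 (0.58 to 1.60). It stood at 87.8, 114, 52.5 and 41.4 CPM in naive, ad libitum, fasted and refed cells of cluster 3, and at 25.6, 50.4, 15.1 and 26.1 CPM in the rest, so it was higher within each population although the ranges over populations overlapped. Klrg1, a cadherin-binding inhibitory receptor of terminally matured cells (chromosome 6, 122270596 to 122282882, minus strand), stood at 233, 242, 160 and 172 CPM in cluster 3 against 101, 143, 106 and 97.5 CPM in the rest (0.76, 0.57 to 1.17). Cluster 4 had as much of these receptors over spleen, with 82.1 CPM of Cx3cr1 against 77.2 in cluster 3 and 208 CPM of Klrg1 against 202.

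Other genes on the higher side belonged to granules and to small cytosolic or mitochondrial proteins. Gzma, the granule tryptase, was at 18955, 20123, 18428 and 18971 CPM in the 4 populations of the cluster against 13030, 15792, 13866 and 13562 CPM in the rest (0.45). Cma1, a chymase made by mature mouse NK cells, was at 337 to 449 CPM against 226 to 283 CPM (0.62), and Pycard, the inflammasome adaptor ASC, at 554 to 686 against 391 to 492 CPM (0.48). Clusters 4 and 5 held similar or higher levels, with 20532 and 21187 CPM of Gzma against 19226 in cluster 3 and 454 and 405 CPM of Cma1 against 397. Among these leading genes, cluster 3 had the highest spleen level of all 12 clusters for Ccl5, Pycard, Wdr95, Ak3, Dcxr and Kxd1. The ratio of Wdr95 was 0.62. S100a4, a calcium-binding protein, had a ratio of 0.62, and Acp5, Ak3, Dcxr, Timp2, Kxd1, Acss2 and Cited2 had ratios between 0.38 and 0.42.

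Genes of immature NK cells and of dividing cells led the lower side. Xcl1, a chemokine for cross-presenting dendritic cells (chromosome 1, 164931644 to 164935527, minus strand), stood at 144 CPM in naive, 230 in ad libitum, 109 in fasted and 297 in refed cells of the cluster against 582, 556, 308 and 615 CPM in the rest (-1.36). Every cluster 3 value was below every value of the rest. Ltb, the lymphotoxin subunit that supports lymphoid tissue, had a ratio of -1.31, Emb, a membrane glycoprotein of progenitors, -1.33, and Tcf7, the transcription factor of early NK cells, -1.10 with 20.2 to 23.3 CPM against 49.7 to 71.1 CPM. Mki67 was at 9.0 to 17.6 CPM against 20.1 to 63.4 CPM (-1.54), and Birc5 (-1.53), Hist1h1b (-1.17), Top2a (-1.16), Tuba1b (-1.11) and the granzyme Gzmc (-1.04) also stood on that side. Low levels of some of these genes were shared with neighbouring clusters. Mki67 was at 13.1 CPM in cluster 3, 15.5 in cluster 1, 11.2 in cluster 2 and 19.1 in cluster 4. It was at 49.0 CPM in cluster 5, 232 in cluster 6 and 509 in cluster 10. Tcf7 was at 21.4 CPM in cluster 3, 21.8 in cluster 4 and 21.7 in cluster 5, but at 57.5 in cluster 1. Cluster 1 also held more Xcl1 (500 against 197 CPM), Ltb (149 against 58.7) and Emb (96.3 against 41.8) than cluster 3.

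**Figure D2:**
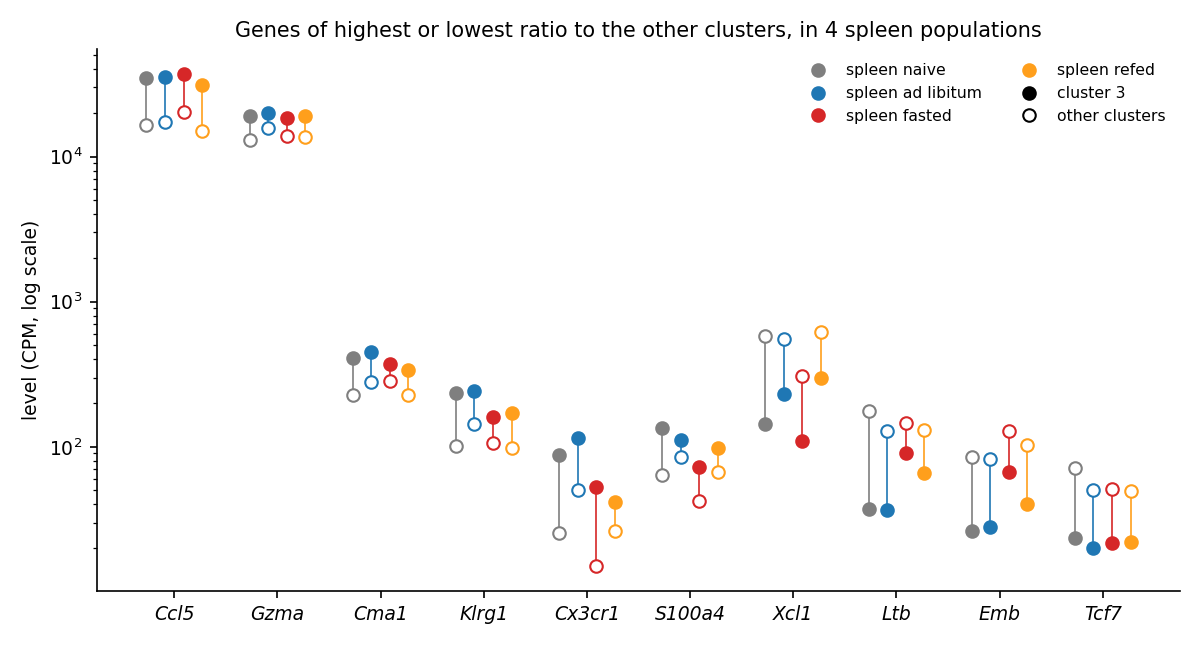
Level of 10 leading genes in the 4 spleen populations (CPM, log axis), with filled points for cluster 3 and open points for all other singlets of the same population. Ccl5, Gzma, Cma1, Klrg1, Cx3cr1 and S100a4 lie higher in cluster 3 within each population, and Xcl1, Ltb, Emb and Tcf7 lie lower.

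Gene lists were then counted, but they hold leading genes named above, so the counts are no separate support. The mature list holds Cx3cr1, Klrg1 and Cma1, and the immature list Xcl1, Ltb, Emb and Tcf7. Of 13 measured mature NK genes, 11 had ratios above 0, against 31.7% of all genes, 3 were past 1.5-fold higher and none past it lower, with a list median of 0.09. Of 11 immature NK genes all 11 were below 0 and 7 past 1.5-fold lower (median -0.63), and of 7 dividing genes all 7 were below 0 and 5 past the fold (median -0.82). The immature list was nearest to the rest in the fasted population, with medians of -0.99 in naive, -0.71 in ad libitum, -0.43 in fasted and -0.56 in refed cells. NK identity genes had a median of 0.00 with 7 of 14 above 0, and subunits of the respiratory chain a median of 0.01 with 15 of 29 above 0.

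Few genes induced by activation or stress passed the fold. Ratios below 0 were common to 68.3% of all 2701 genes, and against that share all 11 immediate early genes (median -0.26), all 7 heat shock genes (-0.27), all 7 MYC and nucleolar growth genes (-0.27), all 6 NF-kB feedback genes (-0.39, with 1 past the fold) and all 10 MHC class I pathway genes (-0.16) had ratios below 0. The change of the median of all genes with TMM scaling is close in size to the MHC class I median. Cluster 3 was the lowest of the 12 clusters for the chaperones Hsp90ab1 (-0.41) and Hsp90aa1 (-0.55), the nucleolar protein Ncl (-0.49) and the interferon-induced membrane protein Bst2. Of 6 interferon-induced genes 5 were below 0 and 2 past the fold (median -0.20). Among further effector genes, ratios were 0.03 for Prf1 (perforin), -0.11 for Gzmb and -0.07 for the cytokine gene Ifng, against the -1.04 of Gzmc given above. The homing genes S1pr5 (0.28) and Cxcr4 (-1.39) had ratios of opposite sign.

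Over 4232 genes the profile of cluster 3, summed over singlets of all tissues, was closest to those of clusters 1, 5 and 4. Pearson correlations across genes were 0.9904, 0.989 and 0.986, given as a description since all profiles share 1 lane and most genes. The ratios to these clusters were again taken within the 4 spleen populations, and the singlet numbers given are over all tissues. Against cluster 1 (1272 singlets), 7 of 2721 genes (0.257%) were past the fold higher and 42 (1.54%) lower. Cx3cr1 stood at 7.44 to 19.2 CPM in cluster 1, which put the median log2 ratio at 2.25, and Klrg1 at 70.2 to 82.8 CPM (1.36). Cma1 (0.91), Ccl5 (0.90), the protease inhibitor Timp2 (0.80) and Gzma (0.69) were also higher in cluster 3, and Cxcr4 (-1.62), Ltb (-1.46), Emb (-1.43), Tcf7 (-1.21) and Xcl1 (-1.17) lower. Of the mature list 12 of 13 genes were above 0 (35.4% of all genes were) with 3 past the fold. Of the immature list all 11 were below 0 (64.6% of all genes were) with 7 past it.

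Cluster 5 (796 singlets) differed in division genes. There 6 of 2720 genes (0.221%) were past the fold higher in cluster 3 and 40 (1.47%) lower. The genes of cell division Birc5 (-1.90), Hist1h1b (-1.31), Top2a (-1.29), Tuba1b (-0.98), Tubb4b (-0.91) and Smc2 (-0.83) were among the 8 lowest. All 7 measured members of the dividing list were below 0, as were 76.8% of all genes, and 4 were past the fold. Ccl5 (0.88) and Cx3cr1 (0.85) were again higher in cluster 3. Medians of the mature list (-0.11) and of the immature list (-0.03) were near the median of all genes, -0.13.

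Against cluster 4 (960 singlets), 30 of 2864 genes (1.05%) were past the fold higher in cluster 3 and 121 (4.22%) lower. Ly6c2, a surface protein of the most mature NK cells, stood at 357, 454, 525 and 309 CPM in naive, ad libitum, fasted and refed cells of cluster 3 and at 1132, 1349, 1207 and 1293 CPM in cluster 4, so the groups did not overlap (-1.61). The nuclear RNA Malat1 was at 19175 to 21367 CPM against 43943 to 47895 CPM (-1.16). Thy1, a surface glycoprotein of younger NK cells, was higher in cluster 3 (1.20), as were Cd160 (0.91) and Cd27 (0.76). Of the mature list 12 of 13 genes were below 0 (74.2% of all genes were) with 3 past the fold lower. Of the immature list 6 of 8 were above 0 (25.8% of all genes were) with 3 past the fold higher.

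The single cells of cluster 3 were compared at equal depth by thinning each cell to 1500 UMIs, which kept 1072 spleen cells. At that depth a cell that expresses a gene can lack its UMI, and free RNA can give a UMI to a cell that does not. Free RNA was read from 66 spleen cells rich in monocyte and macrophage transcripts, whose median depth before thinning was 11649 UMIs against 4716 in cluster 3. All thinned cells of cluster 3 had a UMI of Ccl5 and of Gzma, but so had 59.1% and 45.5% of the monocyte and macrophage cells, so a UMI of these abundant genes does not mark a cell that makes them. Klrg1 was seen in 24.6% of them (22.1 to 27.3; 49.1% before thinning) against 14.8% of the other NK cells (13.7 to 16), and in 0 of 66 monocyte and macrophage cells, which allows up to 4.55% (7.46% before thinning). Cd27, a receptor of the tumour necrosis factor family on younger NK cells, was seen in 10.3% of the cells (29.3% before thinning, and 4.55% of the monocyte and macrophage cells). Itgam, the CD11b chain that myeloid cells also make, was seen in 20.3% (50.2% before thinning). Sorting the cells by these genes gave 8.86% with Cd27 alone, 18.9% with Itgam alone, 1.40% with both and 70.8% with neither, so the transcripts placed most cells in no maturation class at this depth.

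Transcripts of Ly49 receptors were each seen in a subset of the cells. Their genes are near-identical copies on chromosome 6, so how counting split reads between them is uncertain. Klra4 (Ly49D, activating) was seen in 53.6% of cluster 3 cells, Klra7 (Ly49G) in 46.5%, Klra8 (Ly49H, the receptor for a cytomegalovirus protein) in 44.3%, Klra9 (Ly49I) in 43.0%, Klra3 (Ly49C) in 25% and Klra1 (Ly49A) in 16.2%. In the monocyte and macrophage cells these shares were 15.2, 13.6, 6.06, 4.55, 3.03 and 3.03%, well below. Klra8 was less frequent in cluster 3 (41.3 to 47.3) than in the other NK cells (51.2%, 49.7 to 52.8), and before thinning its share in the cluster was 59.5%. A cell of cluster 3 showed on average 2.32 of 9 Ly49 genes (2.51 in naive, 2.36 in ad libitum, 2.21 in fasted, 2.30 in refed cells) against 2.38 in the other NK cells, and 6.90% of the cells showed none.

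**Figure D3:**
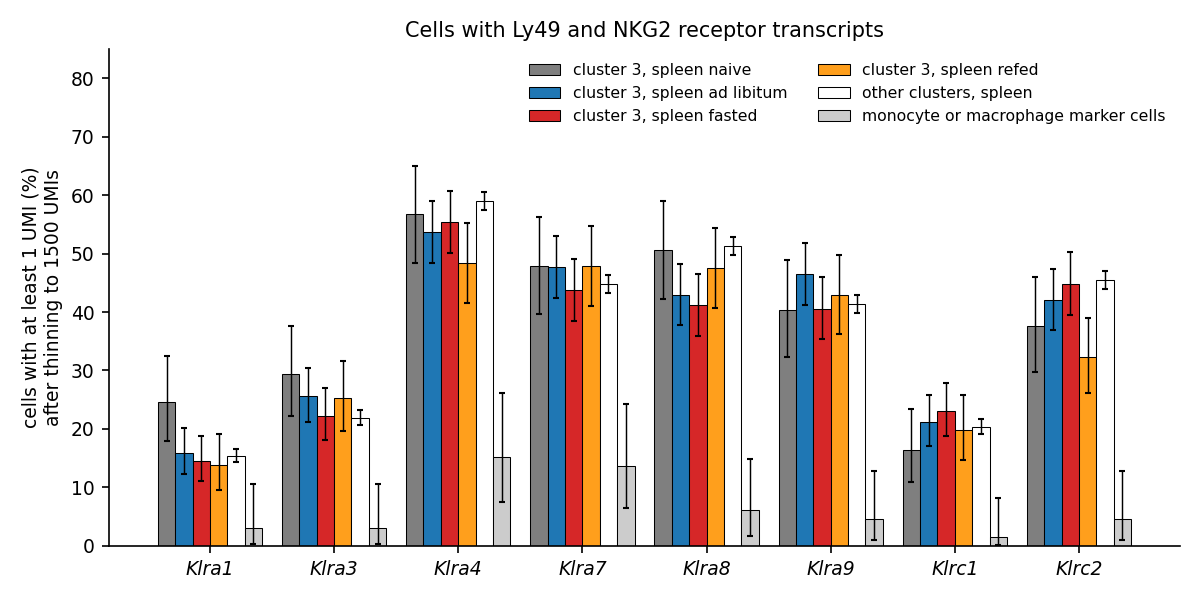
Share of spleen cells with at least 1 UMI of 6 Ly49 genes and of the NKG2 genes Klrc1 and Klrc2 after thinning every cell to 1500 UMIs (% on the vertical axis), by population of cluster 3, with 95% exact binomial intervals. Klra1 is highest in the naive cells at 24.7% against 13.8 to 15.9% in the others, with intervals that overlap. Klra4, Klra7, Klra8 and Klra9 lie between 40.4% and 56.8% in each population.

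Some effector genes varied from cell to cell beyond counting. Over 3494 genes the median ratio of variance to mean at 1500 UMIs was 1.03, near the value for pure counting. It was 5.88 for Ccl5, 4.46 for Malat1, 4.03 for Xcl1, 3.67 for Ly6c2, 3.63 for Ccl4 and 3.25 for Gzma. For the same relative spread between cells this ratio is larger in an abundant gene, so it does not rank genes by relative spread. A thinned cell held on average 53.4 UMIs of Ccl5, 31.7 of Malat1 and 29.2 of Gzma, but 0.262 of Xcl1, 0.823 of Ly6c2 and 1.05 of Ccl4. Xcl1 was present in 16% of the cells (33.4% before thinning, and 9.09% of the monocyte and macrophage cells), and the highest cell held 20 UMIs, while Ccl4, a chemokine secreted by activated NK cells, reached 25 UMIs in the highest cell. By population the Xcl1 ratio was 1.05 in naive, 5.38 in ad libitum, 2.17 in fasted and 4.3 in refed cells, so the pooled value did not hold in the naive cells. Klra4 (3.08), Klra1 (2.69), Klra8 (2.68), Klra9 (2.47), Klra3 (1.99) and Klra7 (1.91) were the Ly49 receptors among the 25 genes of highest ratio.

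Fasted cells of cluster 3 in spleen were compared with ad libitum cells of the same cluster, which asks what differs with diet once the assignment to clusters is held fixed. Of 2677 genes reaching 50 CPM in one of the populations, 39 (1.46%) were at least 1.5-fold higher in fasted cells and 22 (0.822%) at least 1.5-fold lower. Without cells holding 10 or more UMIs of another cell type, a filter added after the data were seen, the counts were 42 and 26, and after thinning to 1500 UMIs 135 and 136. Genes known as targets of the glucocorticoid receptor and of FOXO factors led the higher side, and chemokines and markers of maturity the lower side.

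Pik3ip1, an inhibitor of phosphoinositide 3-kinase (chromosome 11, 3330401 to 3342971, plus strand), stood at 19.2 CPM in naive, 16 in ad libitum, 70.4 in fasted and 17.6 in refed cells of cluster 3. Only the fasted value was apart, with a log2 ratio to ad libitum of 1.84 (95% interval 1.36 to 2.32). Tsc22d3, the leucine zipper protein GILZ (chromosome X, 140539528 to 140600659, minus strand), stood at 80.9, 95.1, 262 and 86.2 CPM (1.41, 1.17 to 1.66), and Txnip, which binds thioredoxin and restrains glucose uptake (chromosome 3, 96557957 to 96561883, plus strand), at 233, 233, 533 and 263 CPM (1.17, 1.01 to 1.34). In both, the naive, ad libitum and refed values lay close together and the fasted value was above all of them.

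In single cells thinned to 1500 UMIs, Tsc22d3 was seen in 12.3% of naive, 15.6% of ad libitum, 32.6% of fasted and 13.4% of refed cells of the cluster, and before thinning in 32.7, 35.6, 63.7 and 35.0%. Of the thinned monocyte and macrophage cells, which also express the gene, 18.2% had it. Fkbp5, a co-chaperone of steroid receptors, was at 30.0 CPM in ad libitum and 63.4 CPM in fasted cells (0.97), and Ddit4, an inhibitor of mTORC1, at 44.4 and 77.4 CPM (0.74). Of the 7 measured glucocorticoid targets 5 were past the fold higher (1.46% of all genes were) and none lower, with a median of 0.97, and in the other singlets of the same populations 6 of 8 were past it with a median of 0.92. Rgs2 (-0.03) and Dusp1 (0.00) were the members that stayed level.

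The FOXO and KLF2 list shared Txnip, Tsc22d3 and Pik3ip1 with the former list, had the survival factor Bcl2 as its other member past the fold (266 CPM in ad libitum and 415 CPM in fasted cells, 0.64), and had a median of 0.08 over 10 genes. Klf2 (-0.03) and Btg1 (0.08) stood near 0. Other genes on the higher side were Acp5, an acid phosphatase (77.5 and 186 CPM, 1.21), Rab27a, a GTPase for granule release (29.5 and 67.8 CPM, 1.08), Klhl6 (105 and 204 CPM, 0.92) and Acaa2, a thiolase of mitochondrial fatty acid oxidation (32.6 and 60.8 CPM, 0.81, but -0.26 in thinned cells). Of the 7 measured genes of fatty acid oxidation Acaa2 was the 1 past the fold, and the list median was -0.03.

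Because several of these genes were high together in the fasted cells, the 250 bases before the Txnip start site are shown, from RefSeq on GRCm38.p6 (chr3:96557707-96557956, plus strand). The first stretch in capitals, 172 to 160 bases before the start, matches a pair of glucocorticoid receptor half-sites, searched as GNACA, any 3 bases and TGTNC. The other stretch in capitals, at 121 to 115 bases, matches GTAAACA, a forkhead motif.
Txnip promoter: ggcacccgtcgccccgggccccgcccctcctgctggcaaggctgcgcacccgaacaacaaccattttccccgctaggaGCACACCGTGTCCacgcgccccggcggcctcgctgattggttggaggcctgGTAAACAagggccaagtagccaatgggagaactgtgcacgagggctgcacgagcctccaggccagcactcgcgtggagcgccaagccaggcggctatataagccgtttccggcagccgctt
Each RefSeq window searched, on both strands, held 300 bases, the 250 before the start and those just after it. The forkhead letters were in 4.05% and the half-site pair in 0.537% of all 27025 genes with a window, counting a gene if any of its windows held them. Of the 12 genes highest in fasted cells 10 had an entry, and 2 of these, Ltb and Txnip, held the forkhead letters and 1, Txnip, the half-site pair. The other motifs searched were CACGTG, an E-box, in 2 of the 10 genes (8.09% of all genes), AGGTGTGA, a T-box motif, in 1 (1.48%), GGGTGTGG, a KLF motif, in 1 (4.09%) and an interferon response motif, searched as GAAA, any 2 bases and GAAA, in 0 (3.99%). Txnip was chosen for display because it holds both marked stretches. A match is a description of letters and no measurement of binding.

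Chemokines stood lower in fasted cells. Ccl4 (chromosome 11, 83662584 to 83664683, plus strand) was at 592 CPM in naive, 1056 in ad libitum, 497 in fasted and 556 in refed cells of the cluster (-1.08, -1.20 to -0.96), so the ad libitum value stood above the other 3. Ccl3, a chemokine encoded next to it on the chromosome, was at 710, 1141, 643 and 707 CPM (-0.82, -0.93 to -0.71), in the same order. Xcl1 (-1.04, -1.29 to -0.79) and Ifng, the interferon that activates macrophages (191, 284, 194 and 209 CPM, -0.54), were also lower in fasted cells, while Ccl5 had a ratio of 0.07. Of 7 cytokines and chemokines 3 were past the fold lower (0.822% of all genes were) and Ltb was past it higher (1.46% were).

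Among maturity genes Cx3cr1 and Zeb2 were past the fold lower in the fasted cells of the cluster. Cx3cr1 had a ratio of -1.05 (-1.40 to -0.71), Zeb2, a repressor needed for terminal maturation, was at 492 CPM in ad libitum and 309 CPM in fasted cells (-0.66), Klrg1 had a ratio of -0.58 and Gzmb, granzyme B, of -0.47 (1125 and 808 CPM). Of 14 mature NK genes 12 were below 0, against 52.6% of all genes, with a median of -0.28, and Ly6c2 was on the other side at 525 against 454 CPM (0.21). Of 9 immature NK genes 7 were above 0, with Ltb, Emb and Cd7 past the fold higher and Xcl1 past it lower (median 0.46). The adhesion and signalling receptor Slamf7 (176 and 84.5 CPM, -1.02), the lectin Lgals1 (2812 and 1686 CPM, -0.74) and the interferon-induced Isg15 (52.7 and 29.4 CPM, -0.74) were further genes on the lower side. Isg15 turned to 0.17 where cells with 3 or more UMIs of 1 other cell type were left out. All 6 measured interferon-induced genes were below 0 (median -0.36), as were 27 of 29 respiratory chain subunits, with a median of -0.19 and none past the fold.

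The same ratios were taken in the other singlets of the 2 populations, where the mix of clusters was not held fixed. Cluster 5 held 13.0% of naive, 18.3% of ad libitum, 7.55% of fasted and 14.8% of refed spleen singlets. Cluster 1 held 25.6, 16.1, 24.5 and 21.3% in that order. The part of this mix in the ratios of the rest, here and in the comparisons below, was not tested. For Pik3ip1 (1.94), Tsc22d3 (1.28) and Txnip (1.19) the ratios of the rest were near those of cluster 3. Ltb (chromosome 17, 35194439 to 35196320, plus strand) stood at 37.0, 36.7, 90.9 and 66.0 CPM in naive, ad libitum, fasted and refed cells of cluster 3, a fasted ratio of 1.20 (0.82 to 1.59) against 0.19 in the rest, and the difference of the ratios was 1.02 (0.62 to 1.42). Ly6e, a glycosyl-anchored surface protein induced by interferon, stood at 241, 336, 649 and 383 CPM (0.94 against 0.46, difference 0.48, 0.32 to 0.63). Emb (difference 0.51, 0.07 to 0.96) and Acp5 (0.47, 0.15 to 0.78) were likewise more different in the cluster, and Ccl4 on the lower side (-0.52 in the rest, difference -0.56, -0.69 to -0.42). For Cx3cr1, with -1.47 in the rest, the difference was 0.41 with an interval from -0.05 to 0.88.

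Leaving out unnamed gene models and ribosomal, mitochondrial and antigen receptor genes, 59 genes were past the fold in the cluster. Of these 55 had the same sign in the rest, and for 19 the interval of the difference left out 0. In the comparisons described next, which share populations with this one, the genes of the same sign were 82 of 89 for refed against fasted (33 with an interval off 0), 28 of 37 for refed against ad libitum (28) and 32 of 54 for ad libitum against naive (42). These genes were picked for a large ratio in cluster 3, which by itself widens the difference from the rest. The intervals do not allow for that choice, here or for the single genes, and the shares over all genes are not given. The dividing list had a median of -0.18 in cluster 3, with 2 of 4 genes on each side and 0.09 after thinning. In the other singlets it was -0.88, with all 8 below 0 and 6 past the fold. Cluster 10, of highest Mki67, held 1.11% of ad libitum and 0.359% of fasted spleen singlets, and the part of such shifts was not tested.

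**Figure D4:**
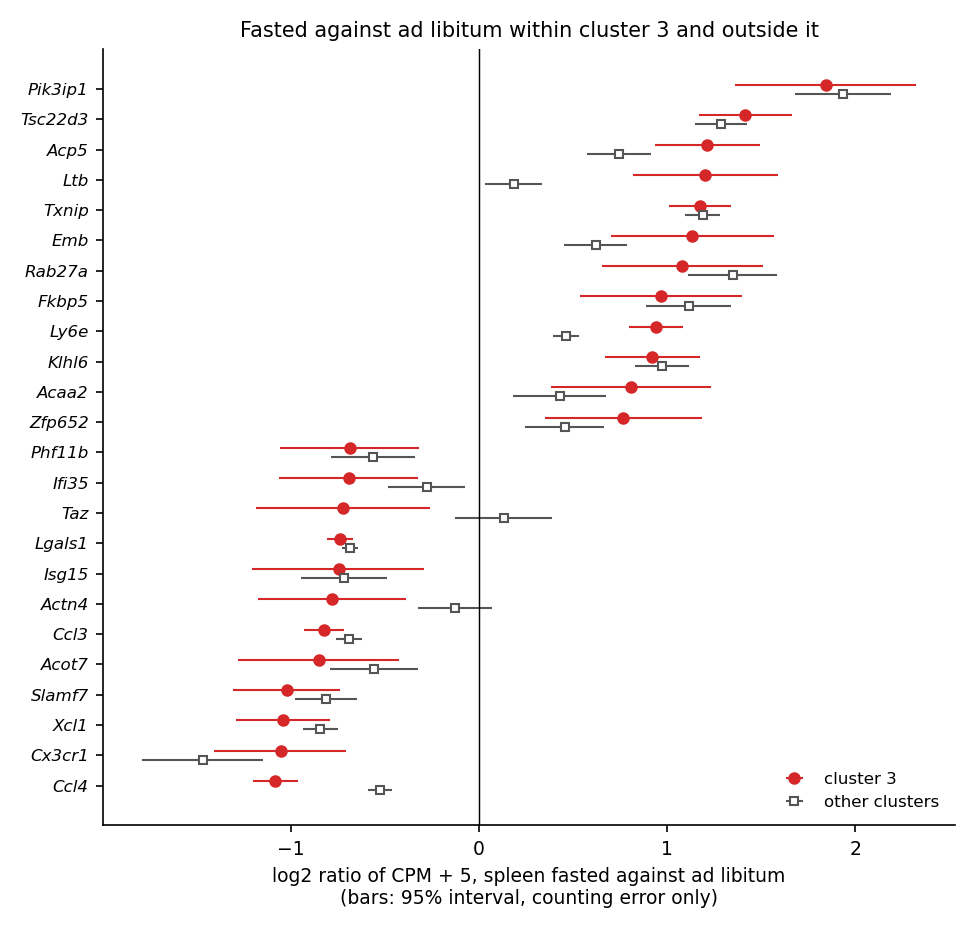
Log2 ratio of CPM + 5, fasted over ad libitum spleen, for the 12 highest and 12 lowest named genes in cluster 3 (red) and in the other singlets (open squares), with 95% counting intervals. Ltb is at 1.20 in cluster 3 and 0.19 in the rest, and Pik3ip1 and Tsc22d3 lie close together in both.

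Refed cells of cluster 3 were then set against fasted cells, which share the fasted population with the comparison above. Of 2648 genes, 30 (1.13%) were past the fold higher in refed cells and 62 (2.34%) lower, and with TMM scaling 40 and 47. Without cells holding 10 or more UMIs of another cell type they were 32 and 56. The glucocorticoid targets stood lower in refed cells: Pik3ip1 by -1.74, Tsc22d3 by -1.55, Fkbp5 by -1.25, Ddit4 by -1.17 and Txnip by -1.0 on the log2 scale, 5 of 7 past the fold with a median of -1.17. Zfp36l2, an RNA-decay factor, was at 644 CPM in fasted and 319 CPM in refed cells (-1.0), and Dusp2, a phosphatase of MAP kinases, at 693 and 379 CPM (-0.86, with -0.57 in the rest). Gpr65, an acid-sensing receptor, had a ratio of -0.95, and Klhl6 one of -1.09.

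Chaperones and Xcl1 stood higher in refed cells. Xcl1 was at 109 CPM in fasted and 297 CPM in refed cells (1.40, 1.14 to 1.67, with 0.98 in the rest), the highest of the 4 populations. Hsp90ab1, a cytosolic chaperone, was at 835 and 1453 CPM (0.79), Hsph1 at 26.2 and 50.2 CPM (0.82), and the endoplasmic reticulum chaperones Calr (174 and 298 CPM, 0.76) and Pdia6 (0.88) were higher too. Of 8 heat shock genes 7 were above 0 and 3 past the fold (1.13% of all genes were), with a median of 0.42 in the cluster and 0.72 in the rest. All 5 measured interferon-induced genes were above 0 (median 0.37), and respiratory chain subunits had a median of 0.20 with 24 of 29 above 0. Of the maturity list 6 of 14 were above 0 and 8 below, with Ly6c2 at 525 CPM in fasted and 309 CPM in refed cells (-0.76).

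Set against ad libitum cells, refed cells of the cluster had lower Cx3cr1, Ccl4 and Ccl3 and higher Ltb and Thy1. Of 2625 genes 13 (0.495%) were past the fold higher and 26 (0.99%) lower, and with totals that left out ribosomal protein and mitochondrial genes 51 and 57. Cx3cr1 stood lowest, at 114 CPM in ad libitum and 41.4 CPM in refed cells (-1.36, -1.80 to -0.94, with -0.84 in the rest), and was the 1 of 13 measured maturity genes past the fold. All 13 were below 0, as were 56.7% of all genes, with a median of -0.40 against -0.25 in the rest. Ccl4 (-0.92, -1.05 to -0.79) and Ccl3 (-0.69) were lower and Xcl1 was not (297 against 230 CPM, 0.36), and the Ccl4 ratio in the rest was -0.02, a difference of -0.90 (-1.04 to -0.76). The NF-kB feedback genes were all below 0, with Tnfaip3, the deubiquitinase A20 (-0.77), and Nfkbiz (-0.64) past the fold of 6 measured (median -0.47).

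Higher in refed than in ad libitum cells were Ltb (0.77, with 0.03 in the rest and a difference of 0.73, 0.29 to 1.18), Thy1 at 138 against 87.3 CPM (0.63, 0.32 to 0.94, with 0.06 in the rest), Cblb, a ubiquitin ligase that restrains NK activation (0.66, with -0.08 in the rest), the AP-1 subunit Fosb at 189 against 113 CPM (0.72) and Hsph1 (0.70). All 8 heat shock genes were above 0 with a median of 0.40. Glucocorticoid targets were level, with 2 of 4 on each side and a median of -0.06. Without cells holding 10 or more UMIs of another cell type 14 genes were past the fold higher and 24 lower, and after thinning to 1500 UMIs 127 and 189.

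The last comparison set ad libitum against naive spleen cells, with 150 naive cells in the cluster and 729198 UMIs in their sum. Of 2668 genes 42 (1.57%) were past the fold higher in ad libitum cells and 15 (0.562%) lower, and without ribosomal protein and mitochondrial genes in the totals 83 and 57. Cytokine, NF-kB and interferon genes were on the higher side. Ccl4 was at 592 CPM in naive and 1056 CPM in ad libitum cells (0.83, 0.68 to 0.98, with 0.12 in the rest), Xcl1 at 144 and 230 CPM (0.66, 0.36 to 0.97, with -0.06 in the rest), and Ccl3 had a ratio of 0.68. Nfkbia, the inhibitor of NF-kB, was at 207 and 350 CPM (0.74), Tnfaip3 at 26.1 and 53.2 CPM (0.91) and Nfkbiz at 37.0 and 77 CPM (0.96). These lists had 3 of 6 genes past the fold for cytokines (median 0.61) and 3 of 6 for NF-kB feedback (median 0.57), against 1.57% of all genes.

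Irf7, a regulator of type I interferon (24.7 and 59.4 CPM, 1.12), and Isg15 (21.9 and 52.7 CPM, 1.10, but -0.015 in thinned cells and -0.52 without cells holding 3 or more UMIs of 1 other cell type) were past the fold, and all 6 interferon-induced genes were above 0 (median 0.47). Klra1 (Ly49A, chromosome 6, 130363917 to 130386874, minus strand) was lower in ad libitum cells, at 380 against 224 CPM (-0.75, -0.97 to -0.53). It was seen in 24.7% of thinned naive cells (17.9 to 32.5) and in 15.9% of ad libitum (12.3 to 20.1), 14.6% of fasted and 13.8% of refed cells. The naive interval overlapped those of the other populations, and before thinning the shares were 29.3, 22.7, 21.7 and 17.7%. In the other singlets the Klra1 ratio was -0.01, so the difference of the ratios was -0.74 (-0.98 to -0.49). Maturity genes had a median of 0.13 with 10 of 13 above 0. The naive population carries 1 hashtag like the others, and the number of mice behind the Klra1 value is not known.

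Outside spleen, 39 cells of bone marrow ad libitum and 32 of tumour fasted could be read, both under the 50 cells set for a comparison, and their values are given side by side with spleen only. In the bone marrow ad libitum cells, where 3 UMIs stand for 12.8 CPM, Ccl5 was at 32657, Gzma at 17165, Klrg1 at 192, Cx3cr1 at 51.1 and Ly6c2 at 136 CPM. In the tumour fasted cells, where 3 UMIs stand for 17.7 CPM, Ccl5 was at 42721 and Gzma at 19070 CPM, close to spleen in order, but other genes were far from it. Gzmb was at 4210 CPM in tumour fasted and 808 CPM in spleen fasted cells, Ctla2a at 4570 and 688 CPM, the chemokine receptor Cxcr4 at 489 and 49.3 CPM, and the retention marker Cd69 at 601.5 and 86.4 CPM. Klrg1 was at 35.4 and 160 CPM and Ly6c2 at 23.6 and 525 CPM, and Cx3cr1 and S1pr5 had 1 UMI each in the tumour cells. Summed over the list, TGF-beta response and residency genes stood at 4605 CPM in the tumour fasted cells against 809 to 898 CPM in the spleen populations, and immediate early genes at 10461 against 3404 to 4100 CPM. Lists of other cell types stood higher in the tumour fasted cells too, with type 1 innate lymphoid genes at 136 CPM against 9.60 to 33.3 CPM in spleen, dendritic cell genes at 295 against 42.5 to 66.9 CPM and erythroid genes at 507 against 221 to 279 CPM, and their part in these values was not tested. The tumour cells were released by enzyme digestion and the spleen cells by straining alone, so tissue and preparation cannot be told apart.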

How the data were processed

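Raw UMI counts per cell and gene, the authors' cluster number of each cell, its hashtag class and the hashtag list were taken as deposited. The hashtag caller, the clustering and the annotation were not given in the sources used here. Per the labels' protocol, the authors built the counts of 1 Chromium lane with seqc. The build was mm10, per the submitters' processing notes. The table held 13118 cells and 16800 gene columns, and 11 columns with repeated symbols were summed. Of these cells 33 had no hashtag class, and cells classed as doublets were left out with no further doublet caller.

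UMIs were summed over the cells of a cluster in a population and divided to CPM. Log2 ratios used a pseudocount of 5 CPM, genes needed 50 CPM in either group compared, and 1.5-fold marked a called gene. With 1 sample per population no test was run, and intervals are 95% limits that cover counting error only. They are exact binomial limits, except for differences between the ratios of the cluster and the rest, where a normal approximation was used. A comparison needed 50 cells on a side, and the limit for a count of 0 is 3 counts. Free RNA was read in cells with at least 20 UMIs of monocyte and macrophage markers. For the cluster, the genes named were the 15 highest and 10 lowest. For a comparison of spleen populations they were the 12 highest and 12 lowest, or 6 and 6 with fewer than 200 cells on a side. Up to 4 most abundant members of each of 38 lists and 18 NK genes were named too. Unnamed gene models and ribosomal protein, mitochondrial, haemoglobin and antigen receptor genes were not named. The 8 highest and lowest against a neighbouring cluster, and other genes, were picked after their values were seen. The cluster and the lists were chosen with earlier results of these data known.

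Alternatives were cells thinned to 1500 UMIs, mean CPM per cell, TMM factors, totals that leave out ribosomal protein and mitochondrial genes, other pseudocounts and minimum levels, other weights for clusters, and filters on other cell types. The scripts were checked on simulated data. R 4.3.3 with edgeR 4.0.16 gave the TMM factors, and Python 3.11.15 with pandas 2.3.3, scipy 1.17.1, numpy 2.4.6 and matplotlib 3.10.9 all else. Gene positions come from GENCODE M21 and promoters from RefSeq on GRCm38.p6, where 77 of the 98 named genes had an entry.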

Additional observations from a re-analysis of the deposited data

Results flagged for a closer look

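For 6 genes past 1.5-fold within cluster 3, the log2 ratio in the other singlets of the same populations had the opposite sign and both counting intervals left out 0. More genes had opposite signs with an interval that held 0. The 6 were picked for a large ratio in the cluster, and the intervals do not allow for that choice. The difference between the cluster and the rest was not tested, since each population is 1 sample. Between fasted and ad libitum spleen, Pih1d1 had a ratio of 0.61 in cluster 3 (95% counting interval 0.16 to 1.05) and -0.30 in the rest. Between refed and fasted spleen, Zkscan3 had 0.62 (0.15 to 1.10) against -0.25. Between refed and ad libitum spleen, Coro7, a protein of the Golgi and the actin skeleton, had -0.70 (-1.21 to -0.21) against 0.36. Between ad libitum and naive spleen, Zfp512 stood at 19.2 CPM in naive and 51.7 CPM in ad libitum cells of the cluster, a ratio of 1.23 (0.54 to 1.93) against -0.26 in the rest, and the nuclear poly(A) binding protein Pabpn1 had 0.70 (0.10 to 1.32) against -0.38 and the RNA export adaptor Phax 0.68 (0.10 to 1.28) against -0.26. These genes are of low level, and the lower bounds in the ad libitum to naive comparison lie near 0 for Pabpn1 and Phax.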

How the results depend on the processing

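Of 897 recomputed values of named genes, 826 stayed within their limits, 65 moved past them and 6 reversed. The limits were the counting interval in comparisons of spleen populations, and the range over the 4 spleen populations in the cluster comparison. Of 1175 list medians 900 kept their sign and moved little (under 0.1). Weighting the other clusters equally moved 10 of the 25 named genes and 20 of the 26 list medians of the cluster comparison, with Mki67 at -2.48, Xcl1 at -1.97, the dividing list at -1.41 and the NF-kB feedback list at -0.71, and reversed none of the named genes. The reversed genes were, in thinned cells, Acaa2 (-0.26, fasted against ad libitum), R3hdm1 (-0.053) and H2-DMa (-0.0094) in refed against ad libitum, and Isg15 (-0.015, ad libitum against naive), and, without cells holding 3 or more UMIs of 1 other cell type, Isg15 at 0.17 (fasted against ad libitum) and -0.52 (ad libitum against naive). That filter removed 549 of 1173 cells of the cluster, so it also cut depth.

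Counts of genes past 1.5-fold depended on the settings, and the cause was not tested beyond the number of genes and UMIs each setting left. For cluster 3 against the other clusters, the higher count was 3 without cells of 3 or more other-type UMIs, and the lower count was 17 with TMM factors, 66 thinned, 100 at a 20 CPM minimum, 16 at 100 CPM, 66 without such cells and 200 with other clusters weighted equally. In the same order of settings (totals without ribosomal protein and mitochondrial genes, thinned, 20 CPM, 100 CPM, without such cells), refed against fasted gave 67, 144, 116, 10 and 106 higher and 115, 227, 249, 18 and 153 lower. Fasted against ad libitum gave 85, 135, 131, 15 and 101 higher, and, from thinning on, 136, 103, 10 and 56 lower. Refed against ad libitum gave 51, 127, 90, 3 and 86 higher and 57, 189, 155, 8 and 118 lower, with 22 higher by mean CPM per cell. Ad libitum against naive gave 83, 260, 197, 8 and 117 higher and 57, 238, 149, 1 and 118 lower, with 39 lower by mean CPM per cell and 25 at a pseudocount of 1 CPM.

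The bone marrow share of the cluster was 8.82% without cells of 3 or more other-type UMIs and 6.29% without those of 10 or more, a filter chosen after seeing the data. Bone marrow and tumour against spleen within the cluster were not run, since no such population reached 50 cells. No paired analysis was possible because the populations carry no replicate numbers. Depth limits low genes most: in the naive cells 1 UMI is worth more than in the other spleen populations.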
